A study of Homo sapiens with 36 samples.

Results

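The RANK, RANKL and osteoprotegerin axis was described here as 7 genes, chosen by symbol: TNFSF11, which encodes the ligand RANKL, TNFRSF11A, which encodes its receptor RANK, TNFRSF11B, which encodes osteoprotegerin, and the receptor adaptors TRAF1, TRAF2, TRAF3 and TRAF6. They were 7 of the 27852 genes with a symbol in the deposited table and covered 35 of its 159837 transcripts. Poly-A RNA had been sequenced from 4 human prostate cancer (PCa) cell lines grown for 5 days in 4 kinds of culture, which gave 16 groups and 36 libraries. C4-2 and C4-2B, which is a bone-derived subline of C4-2, are the osteoblastic lines (BPCa), and DU145 and 22Rv1 are the osteolytic lines (LPCa). Each line was mono-cultured without RANKL in 3 libraries. Each was also co-cultured across a filter with MG63 cells, a human osteosarcoma line that stands in for osteoblasts (OBs), in 2 libraries, mono-cultured with 50 ng/mL of recombinant mouse RANKL in 2 libraries, and co-cultured with RAW264.7 cells, a mouse macrophage line that forms osteoclasts (OCs), in the presence of the same RANKL in 2 libraries. Each line is a single established culture model, and MG63 cells are tumor cells. The labels did not state that the libraries of a group came from separate cultures, so each p-value measured only the spread between these libraries.

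RANKL is made by cells of the OB lineage and by lymphocytes, and it binds RANK on OC precursors to drive their fusion and bone resorption. Osteoprotegerin is a secreted decoy receptor that binds RANKL and keeps it from RANK. RANK has no enzyme activity of its own: it recruits TRAF proteins, of which TRAF6 is the adaptor that starts NF-kB and MAP kinase signaling, TRAF2 joins receptors of the TNF family to inhibitor of apoptosis proteins, TRAF3 restrains the noncanonical NF-kB pathway, and TRAF1, itself a known NF-kB target, binds TRAF2. In bone metastasis, tumor cells are known for acting on this axis mainly through the OBs and OCs around them.

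The 12 mono-cultures that received no RANKL held 23932472 to 36719047 total counts and the other 24 libraries 9593426 to 15418211, so depth moved with culture in every comparison against the mono-cultures. Levels are given in CPM, the counts scaled to 1e6 per library total, and 3 counts, taken as the limit that a count of 0 allows, equaled 0.0817 to 0.125 CPM in the deeper libraries and 0.195 to 0.313 CPM elsewhere. Such limits cover counting error only. Of 9 prostate epithelium markers, none was at 0 in any of the 16 groups, and their summed level in mono-culture was 7487 to 8740 CPM in BPCa and 1079 to 1695 CPM in LPCa cells. Of 10 macrophage and OC markers, TYROBP was at 0 in all of them, while others were present in mono-culture, among them CD68 at 45.4 to 55.3 CPM and CTSK at 16.7 to 21.5 CPM in DU145, and the summed level of the list was 13.5 to 34.6 CPM in the other lines and at most 83.3 CPM in DU145.

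Promoter sequences are shown for the ligand, its receptor and a pair of adaptors, TRAF1, which set LPCa apart from BPCa cells, and TRAF3, which was called most often between cultures. They are the 250 bases before a RefSeq start on GRCh38.p14, 5′ to 3′ on the strand of the gene. Capitals mark a kappaB motif of the form bound by NF-kB, the TATA box TATAAA or the GC box GGGCGG, each on either strand, with overlapping matches counted separately. TNFSF11 has a pair of RefSeq starts, and the second is shown because the first held none of these motifs. The sequence for TNFSF11 is chr13:42573902-42574151 (+), that for TNFRSF11A is chr18:62325060-62325309 (+), that for TRAF1 is chr9:120929172-120929421 (−) and that for TRAF3 is chr14:102777199-102777448 (+).
TNFSF11, second start: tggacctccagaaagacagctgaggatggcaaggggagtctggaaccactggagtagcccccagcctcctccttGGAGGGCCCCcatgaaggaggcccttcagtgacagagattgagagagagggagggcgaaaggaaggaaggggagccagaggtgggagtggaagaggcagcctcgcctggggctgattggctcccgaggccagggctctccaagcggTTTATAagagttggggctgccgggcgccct
TNFRSF11A: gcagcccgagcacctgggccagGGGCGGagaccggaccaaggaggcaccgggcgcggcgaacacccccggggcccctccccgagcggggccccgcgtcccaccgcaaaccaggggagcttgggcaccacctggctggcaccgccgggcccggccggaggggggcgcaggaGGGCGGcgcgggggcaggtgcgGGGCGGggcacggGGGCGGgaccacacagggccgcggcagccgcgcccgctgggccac
TRAF1, first start: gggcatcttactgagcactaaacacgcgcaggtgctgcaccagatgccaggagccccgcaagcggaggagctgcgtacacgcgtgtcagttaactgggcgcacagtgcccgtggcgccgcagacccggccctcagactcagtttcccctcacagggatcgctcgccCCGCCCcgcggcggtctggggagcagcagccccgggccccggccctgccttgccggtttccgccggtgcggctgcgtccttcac
TRAF3: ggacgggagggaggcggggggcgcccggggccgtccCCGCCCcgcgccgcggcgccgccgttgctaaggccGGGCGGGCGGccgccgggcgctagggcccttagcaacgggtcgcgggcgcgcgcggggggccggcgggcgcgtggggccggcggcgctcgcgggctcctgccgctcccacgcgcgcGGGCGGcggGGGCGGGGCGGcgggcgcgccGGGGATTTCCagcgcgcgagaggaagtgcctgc
Among 35114 promoter windows of the same length, 9.96% held the kappaB motif, 10.7% TATAAA and 42.6% GGGCGG, and the median GC content was 58.0%. The window of TNFSF11 held 1 kappaB and 1 TATAAA match with 62.8% GC. It was picked for holding motifs, so these matches cannot be set against the shares of all windows. ENST00000358545, with 78.7% of the few TNFSF11 counts, begins at the first start, whose window held no match and had 37.6% GC. The window of TRAF3 held 1 kappaB match, 6 GC boxes and 86.4% GC. The receptor window held 4 GC boxes and 82.4% GC, and that of TRAF1 held 1 GC box and 70.0% GC. A match describes the letters and no binding. The main TRAF1 transcript of DU145, ENST00000373887, starts 402 bases downstream of the RefSeq start shown.

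The ligand was close to the limit of detection in every culture. TNFSF11 (chromosome 13, 42562736 to 42608013, plus strand, GRCh38) had 0 counts in 19 of the 36 libraries and more than 3 counts in 5, and its highest value was 6.77 counts. Its highest level was 0.227 CPM. The gene was under the minimum for testing, at least 100 counts in 1 library, and no difference between lines or cultures was detectable at this depth. The RANKL that was added to the cultures was mouse protein and does not enter these counts.

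The receptor had more than 3 counts in every library of every line, and it set the lines apart. TNFRSF11A (chromosome 18, 62325287 to 62391292, plus strand) stood in mono-culture at 3.02, 2.35 and 2.68 CPM in DU145, at 1.73, 2.08 and 1.53 CPM in C4-2, at 1.37, 1.50 and 1.24 CPM in C4-2B, and at 0.325, 0.702 and 0.487 CPM in 22Rv1. All DU145 libraries lay above, and all 22Rv1 libraries below, those of both BPCa lines, while every C4-2 library lay above every C4-2B library. The means were 2.68 ± 0.335 CPM in DU145, 1.78 ± 0.278 in C4-2, 1.37 ± 0.130 in C4-2B and 0.505 ± 0.189 in 22Rv1 (SD, n = 3 each). The widest gap was the one within LPCa, where DU145 was 5.31-fold over 22Rv1. Most of its counts lay on a pair of protein-coding transcripts, ENST00000269485 and ENST00000586569, which held 38.0% and 46.5% in DU145.

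The decoy receptor had counts assigned to its coding transcript in LPCa cells and none in BPCa cells. The single protein-coding transcript of TNFRSF11B (chromosome 8, 118923557 to 118952200, minus strand), ENST00000297350, was at 0 in all 9 libraries of C4-2 and all 9 of C4-2B. It had 8.49 to 19.1 counts in each of the 9 libraries of 22Rv1 and 0 to 9.61 counts in those of DU145, where 1 of 9 was at 0. The few counts of the gene in BPCa mono-cultures lay on ENST00000517352, a transcript annotated to nonsense-mediated decay, which held all of them in both lines. The split between transcripts was estimated from few reads. In the second DU145 library with MG63 cells, ENST00000517352 held all 7.08 counts of the gene. The 0 coding counts in BPCa cells thus do not show that the coding form was absent. Summed over its transcripts, the gene stood at 0.738, 0.437 and 0.661 CPM in DU145 and at 0.728, 0.674 and 0.797 CPM in 22Rv1 in mono-culture. It reached at most 3.06 counts in any library of C4-2 and 4.76 counts in any of C4-2B. These few BPCa counts make the ratios uncertain: in C4-2 mono-cultures the gene had 3.06 counts in the first library and 0 in the other two. With that library, the pooled mono-culture level was 19.2 times (exact 95% interval 6.24 to 95.5) that of C4-2 in DU145 and 22.9 times (7.46 to 113.9) in 22Rv1, and 5.15 times (2.74 to 10.5) and 6.15 times (3.27 to 12.6) that of C4-2B, and without it the ratios to C4-2 have no upper bound and lower bounds of 9.64 and 11.5. All of these intervals cover counting error only.

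**Figure D1:**
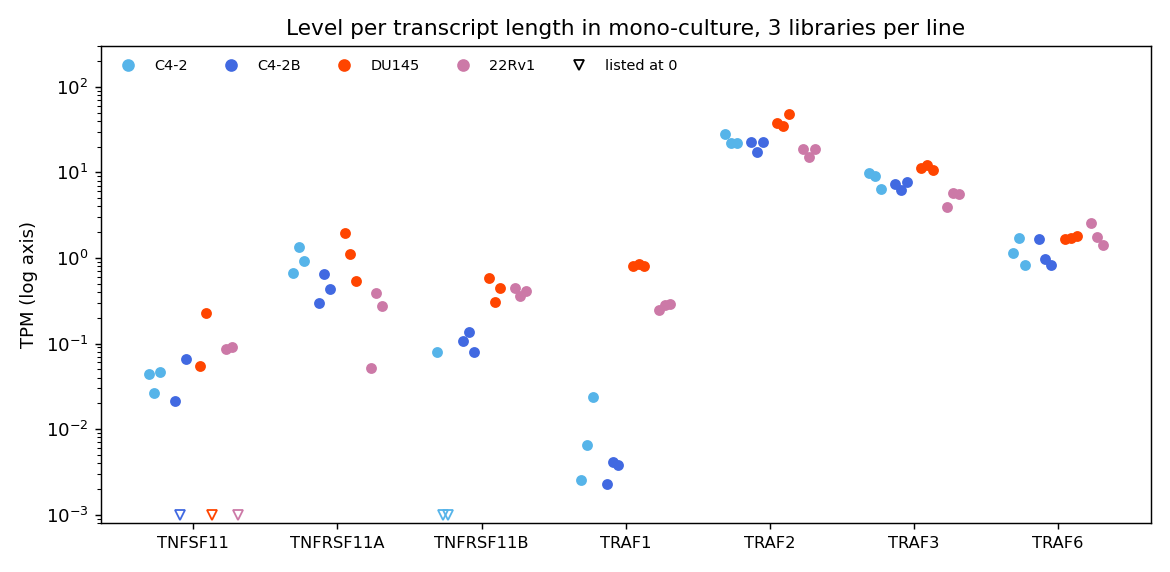
Level per transcript length (TPM, log axis) of the 7 genes in the 3 mono-culture libraries of each line, with open triangles for values listed at 0. TRAF2 and TRAF3 lie highest in all 4 lines, and TNFRSF11B and TRAF1 split the LPCa from the BPCa lines.

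TRAF2 and TRAF3 were more abundant than the receptor in every line. Levels of different genes were compared per transcript length (TPM, computed from the deposited counts and GENCODE 29 lengths). In mono-culture the mean of TRAF2 was 24.1 TPM in C4-2, 20.8 in C4-2B, 40.0 in DU145 and 17.5 in 22Rv1, and TRAF3 followed at 8.37, 7.12, 11.4 and 5.15 TPM. TRAF6, the adaptor of RANK signaling, stood at only 1.16 to 1.91 TPM in the 4 lines, and the receptor at 0.236 to 1.203 TPM. The order of TRAF2 over TRAF3 over TRAF6 held for the mean of each line.

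TRAF1 was measured in LPCa cells and stayed under the limit of detection in BPCa cells. TRAF1 (chromosome 9, 120902393 to 120929173, minus strand) stood at 4.99, 5.31 and 4.93 CPM in the mono-cultures of DU145 and at 1.62, 1.84 and 1.85 CPM in those of 22Rv1. It stayed at or below 2.76 counts in every library of C4-2 and 1.32 counts in every library of C4-2B, against a limit of 3 counts. Pooled over mono-cultures, DU145 was 117.9 times C4-2 (exact 95% interval 45.7 to 434.3) and 22Rv1 was 41.1 times C4-2 (15.7 to 153), with intervals of counting error only. Most C4-2 counts lay in the third library (0.542, 0.787 and 2.76 counts), and without it the ratios were 311.3 and 108.7. Against C4-2B the ratios were 253.5 (69.8 to 2099) and 88.5 (24.1 to 737.7). In DU145, ENST00000373887 held 98.8% of the TRAF1 counts.

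TRAF2, TRAF3 and TRAF6 were well measured in all 4 lines and ranked the lines in different ways. TRAF2 (chromosome 9, 136881912 to 136926607, plus strand) stood at 55.0, 52.4 and 60.9 CPM in DU145, 33.4, 32.7 and 32.0 in C4-2, 31.5, 27.7 and 33.6 in C4-2B and 25.7, 22.2 and 24.7 in 22Rv1. TRAF3 (chromosome 14, 102777476 to 102911500, plus strand) stood at 30.9, 34.1 and 31.7 CPM in DU145, 23.1, 21.4 and 20.9 in C4-2, 21.7, 19.6 and 22.1 in C4-2B and 12.5, 13.6 and 13.3 in 22Rv1. Both were thus highest in DU145 and lowest in 22Rv1, with both BPCa lines overlapping between them. TRAF6 (chromosome 11, 36487027 to 36510272, minus strand) stood at 8.10, 7.50 and 6.59 CPM in 22Rv1, 6.97, 6.61 and 6.81 in DU145, 4.09, 4.46 and 3.37 in C4-2 and 3.85, 3.62 and 3.22 in C4-2B. Both LPCa lines lay above both BPCa lines, and each pair overlapped within itself.

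**Figure D2:**
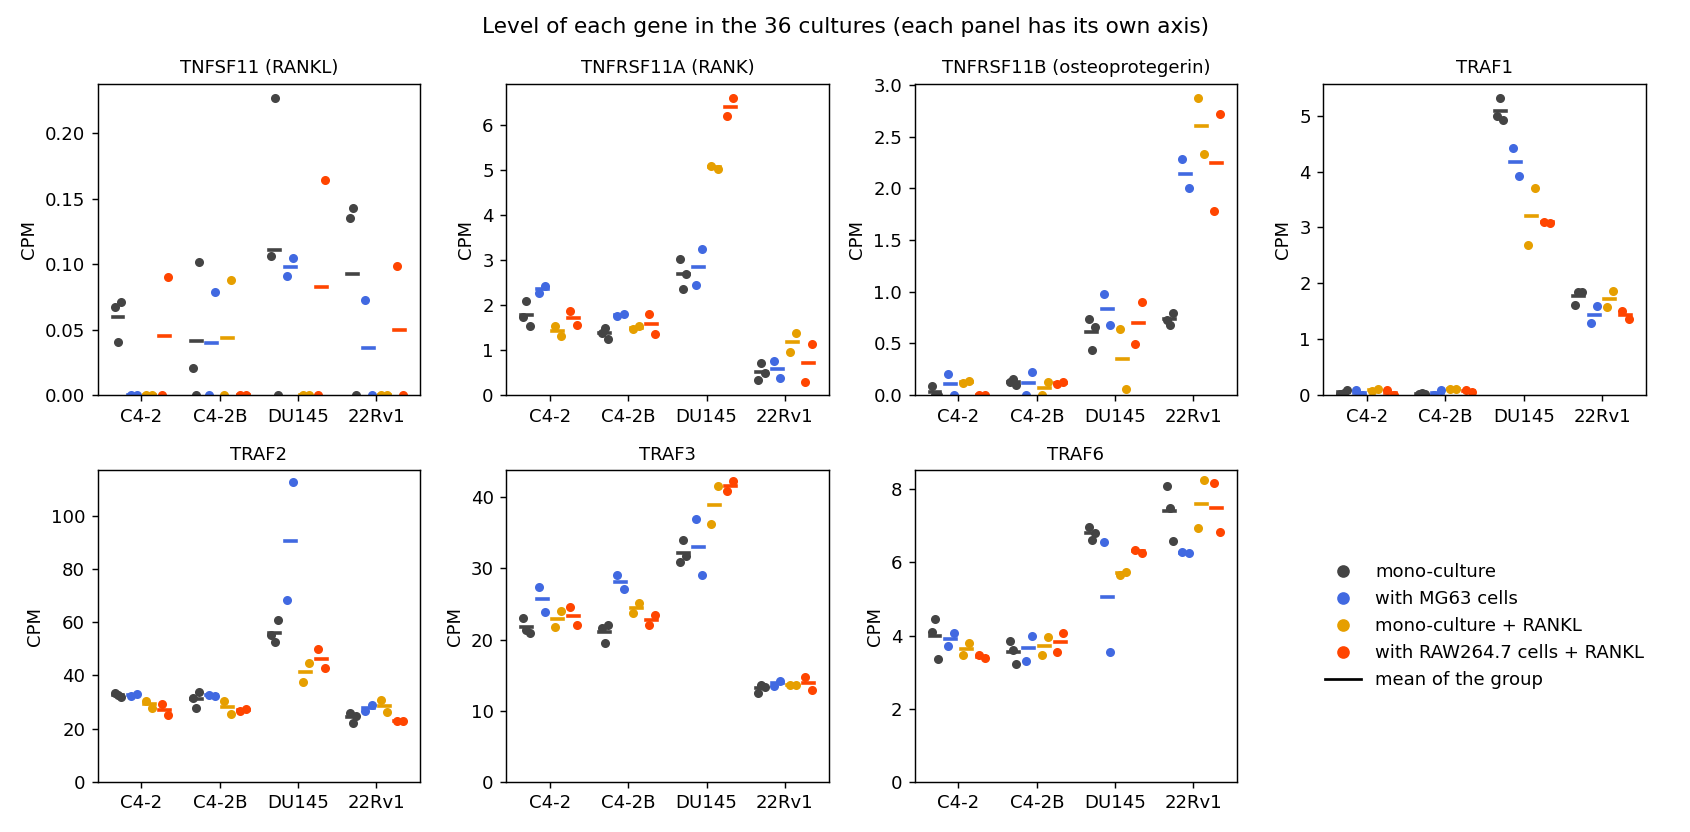
Level in CPM of each of the 7 genes in all 36 libraries, with 1 panel and 1 linear axis per gene, lines along the x axis, a color for each culture and a bar at each group mean. TNFRSF11A in DU145 stands higher with RANKL (5.03 and 5.10 CPM) than without it, and 1 DU145 library with MG63 cells stands alone for TRAF2 at 112.6 CPM.

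The mono-culture levels were compared between lines with edgeR's quasi-likelihood test and Benjamini-Hochberg adjustment over all 13437 genes that passed the minimum, and a gene was called at an adjusted p under 0.05. Of the 7 genes, 5 passed, TNFRSF11A and TRAF1 only because of DU145, where they had the counts to do so. The minimum thus favored a higher value of this pair in DU145, and they are left out of the counts for DU145. Of TRAF2, TRAF3 and TRAF6, DU145 was above C4-2 in 3 of 3, where 78.3% of all tested genes were called, and above C4-2B in 3 of 3, where 79.0% were called. 22Rv1 differed from C4-2 in 5 of 5 against 72.0% of all genes and from C4-2B in 5 of 5 against 72.5%, with TRAF1 and TRAF6 higher and TNFRSF11A, TRAF2 and TRAF3 lower. DU145 was above 22Rv1 in TRAF2 and TRAF3, 2 of 3, against 79.6%. With most genes called in each of these pairs, the counts say nothing particular about these genes, and the directions and sizes are given next.

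The log2 fold change of TNFRSF11A was 0.56 ± 0.22 (SE) in DU145 against C4-2 (adjusted p = 0.0306, edgeR), and −1.85 ± 0.26 in 22Rv1 against C4-2 (adjusted p = 9.48e-06). The DU145 value is a description, since the gene was tested through that line, and its call was lost without a minimum count (adjusted p = 0.069) and without C4-2 mono-culture 1, C4-2 mono-culture 3 or DU145 mono-culture 3 (adjusted p up to 0.111), and without the first DU145 mono-culture, the single library over 100 counts, the gene was not tested. TRAF6 rose by 0.75 ± 0.16 on that scale in DU145 (adjusted p = 0.000578) and by 0.85 ± 0.16 in 22Rv1 (adjusted p = 0.00022), and the LPCa lines differed from each other by −0.10 ± 0.16 (adjusted p = 0.553). TRAF3 was 0.53 ± 0.08 higher in DU145 (adjusted p = 1.71e-05) and at −0.78 ± 0.09 in 22Rv1 (adjusted p = 5.06e-07). TRAF2 was 0.75 ± 0.12 higher in DU145 (adjusted p = 3.95e-05) and at −0.48 ± 0.13 in 22Rv1 (adjusted p = 0.00286). Set against the RANKL mono-cultures instead, TRAF2 in 22Rv1 was at −0.10 against C4-2 and −0.09 against C4-2B and was not called. On scaled TPM counts, which rescale each gene's TPM to the library total in place of summing its counts, the calls of TRAF3 in DU145 against C4-2 (adjusted p = 0.089) and of TRAF2 and TRAF3 in 22Rv1 against C4-2B (adjusted p = 0.17 and 0.0587) were lost.

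C4-2B and C4-2 were not told apart by any of the genes tested. None of 5 was called, 0 had an unadjusted p under 0.05 and DESeq2 also called 0, while edgeR called 13.6% of all tested genes for this pair. The largest difference among the well measured genes was that of TNFRSF11A, at −0.33 ± 0.23 in C4-2B against C4-2 (adjusted p = 0.424). The values of TRAF2, TRAF3 and TRAF6 lay at −0.04 ± 0.13, −0.00 ± 0.08 and −0.11 ± 0.17.

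TNFRSF11B, with fewer than 100 counts in every library, was tested without a minimum count, over 24182 genes. It was then called in DU145 against C4-2 (log2 fold change 4.01, adjusted p = 0.000589, 50.4% of all genes called) and against C4-2B (2.19, adjusted p = 0.0153, 50.8% called), and in 22Rv1 against C4-2 (4.24, adjusted p = 0.00041, 45.4% called) and against C4-2B (2.42, adjusted p = 0.00909, 46.2% called). It was not called between DU145 and 22Rv1 (−0.23, adjusted p = 0.824, 51.3% called) or between C4-2B and C4-2 (1.82, adjusted p = 0.392, 6.23% called). The gene was thus above both BPCa lines in both LPCa lines. A minimum of 10 counts made the same 4 calls (adjusted p up to 0.0145). The gene passed that minimum only through the LPCa lines, so those calls were favored and add no support. Fitted folds of so few counts depend on the prior count, and the pooled ratios given earlier carry the size.

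**Figure D3:**
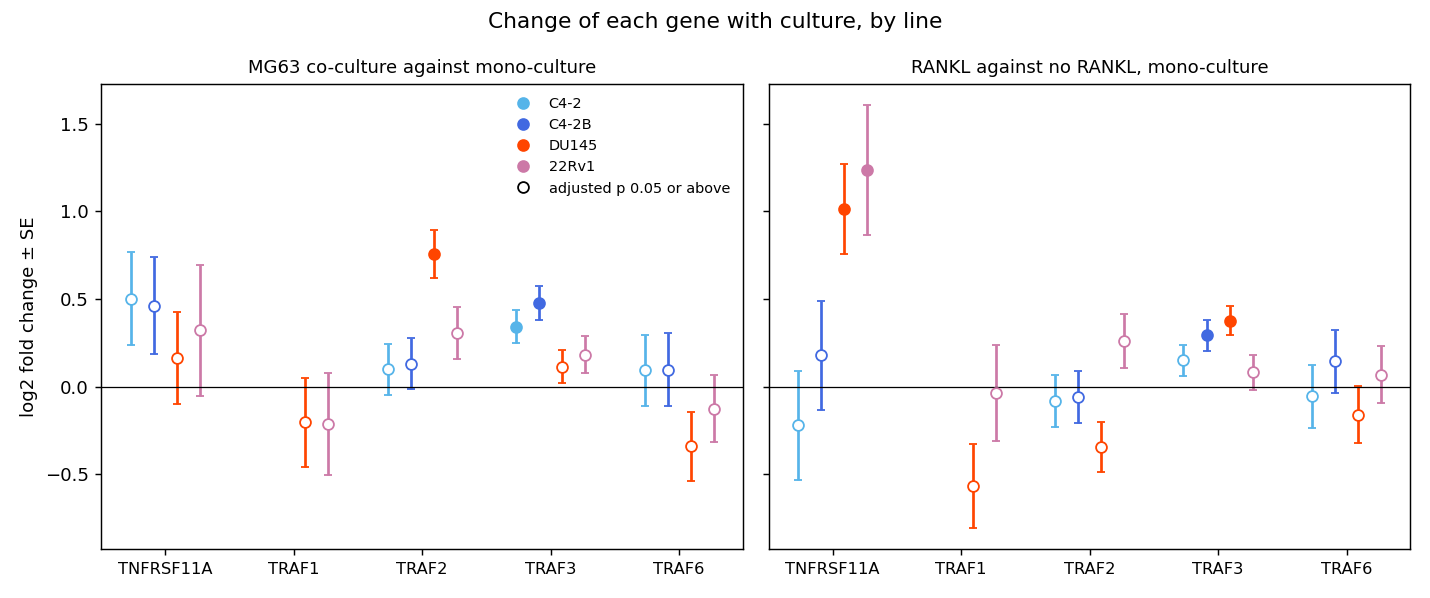
Log2 fold change with its standard error for the 5 tested genes in each line, in separate panels for MG63 co-culture and for RANKL, each against mono-culture, with filled points at an adjusted p under 0.05 and without TRAF1 in C4-2 and C4-2B, where it was under 3 counts. TRAF3 in C4-2 and C4-2B and TRAF2 in DU145 are filled for MG63, and TNFRSF11A in DU145 and 22Rv1 and TRAF3 in C4-2B and DU145 are filled for RANKL.

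Co-culture with MG63 cells asked how the OB side changes the tumor cells. Across 4 lines and 5 genes, 3 of 20 tests were called, and all 3 were higher with MG63 cells: TRAF3 in both BPCa lines and TRAF2 in DU145. TRAF3 stood at 27.3 and 23.9 CPM with MG63 cells against 23.1, 21.4 and 20.9 CPM in C4-2, and at 29.1 and 27.1 CPM against 21.7, 19.6 and 22.1 CPM in C4-2B. In neither line did the groups overlap. The share of all genes whose groups do not overlap was not counted. Lack of overlap between such small groups is therefore only a description throughout. The log2 fold change of TRAF3 was 0.34 ± 0.10 in C4-2 (adjusted p = 0.0315) and 0.48 ± 0.09 in C4-2B (adjusted p = 0.00562), by edgeR's quasi-likelihood test. One of 5 genes was called in each, beside 10.1% of all genes in C4-2 and 7.41% in C4-2B. The call in C4-2 was lost without a minimum count (adjusted p = 0.0861), with scaling to library totals (adjusted p = 0.12), on scaled TPM counts (adjusted p = 0.727), with the replicate number as a block (adjusted p = 0.0514) and without any 1 of its libraries other than the first mono-culture (adjusted p up to 0.269), and that in C4-2B was lost on scaled TPM counts (adjusted p = 0.407) and without its first MG63 library (adjusted p = 0.101). Against the shallower RANKL mono-cultures the values were 0.18 in C4-2 (adjusted p = 0.568) and 0.18 in C4-2B (adjusted p = 0.633), and the part of depth was not tested.

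In DU145, TRAF2 stood at 68.2 and 112.6 CPM with MG63 cells against 55.0, 52.4 and 60.9 CPM in mono-culture. Both libraries lay above the mono-cultures, but they differed from each other by more than the mono-cultures did. The summed level of 13 markers of bone-forming mesenchymal cells was 12.5 to 19.2 CPM in these libraries against 10.8 to 12.4 CPM in mono-culture. Of these markers COL1A2 stood higher, at 0.493 to 0.816 CPM against 0.362 to 0.439 CPM, SPARC stood lower, at 0.112 to 0.129 CPM against 0.161 to 0.201 CPM, TWIST2, the most abundant, overlapped, and POSTN, THY1 and TWIST1 were at 0. Their part in the TRAF2 value was not tested. The log2 fold change was 0.75 ± 0.14 (adjusted p = 0.00131, edgeR), 1 of 5 genes called beside 30.5% of all genes. Without the second MG63 library it was 0.36 (adjusted p = 0.0143), and in a fit of only the groups compared it was 0.83 and not called (adjusted p = 0.184). That library also had the lower TRAF6, 3.55 CPM against 6.55 CPM in the first and 6.61 to 6.97 CPM in mono-culture. It held the larger share of counts on retained-intron transcripts, 6.60% against 4.87%, and the part of this in the values was not tested. Without the first MG63 library TRAF6 was at −0.87 in DU145 (adjusted p = 0.00284), and with both it was at −0.34 ± 0.20 (adjusted p = 0.206). TRAF3 was called without the second (0.28, adjusted p = 0.0471) and not with both (0.11 ± 0.09, adjusted p = 0.379).

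22Rv1 with MG63 cells had 0 of 5 genes called by edgeR beside 20.4% of all genes, with 0 at an unadjusted p under 0.05 and 0 by DESeq2. In a fit of only the groups compared TRAF2 was called (0.30, adjusted p = 0.0346). TNFRSF11B, outside the test, stood at 2.28 and 2.00 CPM against 0.728, 0.674 and 0.797 CPM, and the groups did not overlap. The pooled ratio was 2.92 (exact 95% interval of counting error 2.00 to 4.26), while the test without a minimum count gave 1.63 ± 0.69 on the log2 scale (adjusted p = 0.175). On the coding transcript alone the values were 0.830 and 1.17 CPM against 0.531, 0.483 and 0.592 CPM. Osteoprotegerin is also a product of OBs. The summed level of the 13 mesenchymal markers was 53.6 to 55.8 CPM with MG63 cells and 37.3 to 41.3 CPM in mono-culture. Most of that sum was TWIST1, at 27.3 to 30.4 CPM in mono-culture and 40.6 to 43.7 CPM with MG63 cells. The collagen genes COL1A1, at 3.78 to 4.61 CPM against 2.13 to 2.99 CPM, COL3A1, at 0.715 to 0.875 CPM against 0.431 to 0.471 CPM, and COL6A3, at 0.351 to 0.436 CPM against 0.145 to 0.330 CPM, also stood higher without overlap. PDGFRB stood lower, at 0.0285 to 0.0726 CPM against 0.133 to 0.433 CPM, COL1A2, SPARC, POSTN, THY1, PRRX1, DCN and LUM overlapped between the groups, and TWIST2 was at 0. TNFRSF11B in 22Rv1 also stood at 2.87 and 2.33 CPM with RANKL alone, and at 1.78 and 2.72 CPM with RAW264.7 cells and RANKL. Neither kind of culture held MG63 cells, and both were shallower than the mono-cultures without RANKL. The part of the marker genes and of depth in the TNFRSF11B values was not tested.

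Whether the MG63 effect differed among lines was tested directly. The BPCa lines minus the LPCa lines gave 0 of 5 genes called beside 9.85% of all genes, with 2 at an unadjusted p under 0.05: TRAF2 at −0.41 ± 0.14 (adjusted p = 0.0782) and TRAF3 at 0.26 ± 0.10 (adjusted p = 0.0983). DESeq2 called 0. The test of equal effects in 4 lines also called 0 of 5 with edgeR beside 14.5% of all genes, with 1 at an unadjusted p under 0.05, TRAF2 (adjusted p = 0.0800), which DESeq2 called (adjusted p = 0.0281). These results rest on the first DU145 MG63 library: without it the BPCa minus LPCa difference was called for TRAF2 (−0.57, adjusted p = 4.15e-05), TRAF3 (0.36, adjusted p = 0.00213) and TRAF6 (0.59, adjusted p = 0.0105), and the test of equal effects for the same 3 genes (adjusted p = 1.32e-05, 0.00562 and 0.0233). With all libraries, the call of TRAF3 in BPCa lines and not in LPCa lines was not shown to be a difference between them.

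RANKL itself was compared with mono-culture without it, the comparison closest to the receptor's own function. Of 20 tests, 4 were called, all higher with RANKL. The receptor gene stood at 5.10 and 5.03 CPM in DU145 with RANKL against 3.02, 2.35 and 2.68 CPM without, and at 0.959 and 1.38 CPM in 22Rv1 against 0.325, 0.702 and 0.487 CPM. Neither pair of groups overlapped. The DU145 libraries with RANKL also stood apart in epithelial markers, with EPCAM at 84.5 to 89.9 CPM against 14.5 to 21.6 CPM, KRT18 at 750.8 to 763.6 CPM against 405.6 to 418.4 CPM, CDH1 at 21.7 to 24.7 CPM against 10.0 to 13.6 CPM and a summed level of the 9 prostate epithelium markers of 1807 to 1812 CPM against 1079 to 1109 CPM, whose part in the DU145 values was not tested. The log2 fold change of TNFRSF11A was 1.01 ± 0.26 in DU145 (adjusted p = 0.00374, edgeR) and 1.24 ± 0.37 in 22Rv1 (adjusted p = 0.0210). In DU145, 2 of 5 genes were called beside 32.5% of all genes, and in 22Rv1 1 of 5 beside 17.7%. In the BPCa lines the receptor did not pass the test, at −0.22 ± 0.31 in C4-2 (adjusted p = 0.688) and 0.18 ± 0.31 in C4-2B (adjusted p = 0.767).

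The transcripts behind the receptor values were described within each LPCa line, and no test compared them between the 2 lines. In DU145 the retained-intron transcripts stood at 0.793, 0.430 and 0 CPM without RANKL and at 0.515 and 0.737 CPM with it. In DU145 the pair of coding transcripts rose from 2.22, 1.92 and 2.68 CPM to 4.59 and 4.29 CPM, and the test on these alone gave 1.06 (adjusted p = 0.00103). In 22Rv1 the coding transcripts stood at 0.375 and 0.830 CPM with RANKL against 0.325, 0.565 and 0.386 CPM, groups that overlapped, and the test gave 0.53 (adjusted p = 0.544). The retained-intron transcripts of 22Rv1 stood at 0.584 and 0.545 CPM against 0, 0.137 and 0.101 CPM. These are 3.79 to 13.5 coding counts per library, and the 22Rv1 call was also lost without its first mono-culture or its second RANKL library (adjusted p up to 0.270).

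**Figure D4:**
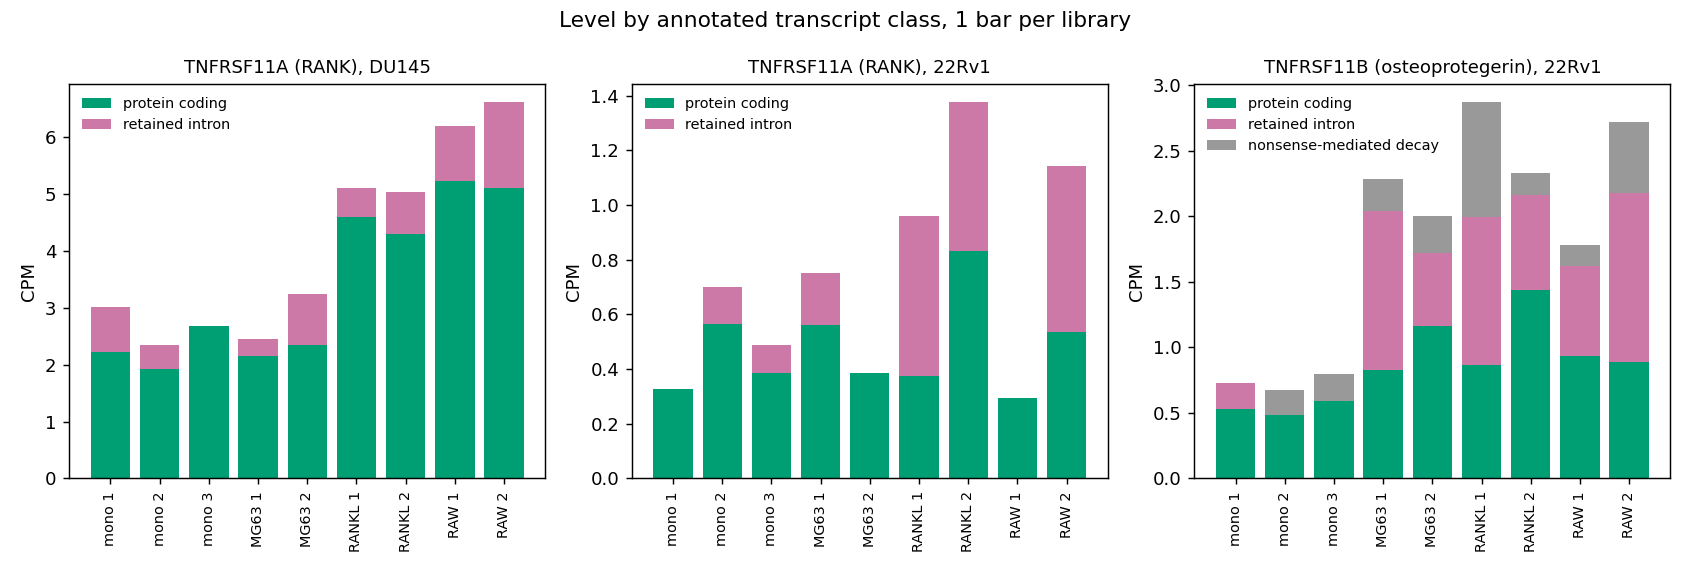
Level in CPM of TNFRSF11A in DU145 and 22Rv1 and of TNFRSF11B in 22Rv1, 1 stacked bar per library, split by annotated transcript class (protein-coding, retained intron, nonsense-mediated decay). The coding part of TNFRSF11A is higher with RANKL in DU145, at 4.59 and 4.29 CPM, while much of the 22Rv1 difference lies on retained-intron transcripts.

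TRAF3 also rose with RANKL in a BPCa and an LPCa line. It stood at 36.2 and 41.7 CPM against 30.9, 34.1 and 31.7 CPM in DU145 (0.38 ± 0.08 on the log2 scale, adjusted p = 0.00104, edgeR). In C4-2B it stood at 23.7 and 25.2 CPM against 21.7, 19.6 and 22.1 CPM (0.29 ± 0.09, adjusted p = 0.0255), 1 of 5 genes called beside 14.4% of all genes. The groups did not overlap in either line. Coding transcripts alone gave 0.21 in C4-2B (adjusted p = 0.131), where the call was also lost without a minimum count (adjusted p = 0.132), with library totals (adjusted p = 0.123), on scaled TPM counts (adjusted p = 0.0803) and without the second mono-culture or either RANKL library (adjusted p up to 0.265), and the DU145 call was lost without the second RANKL library (adjusted p = 0.0557) and on scaled TPM counts (adjusted p = 0.339). TRAF1 and TRAF2 in DU145 had lower values with RANKL, 2.69 and 3.71 CPM against 4.93 to 5.31 CPM and 37.7 and 44.8 CPM against 52.4 to 60.9 CPM, without passing the test (−0.56 ± 0.24, adjusted p = 0.0752, and −0.34 ± 0.14, adjusted p = 0.0695). Scaling to library totals called both (adjusted p = 0.0352 and 0.0146), and a fit of only the groups compared called TRAF2 (adjusted p = 0.0125). C4-2 had 0 of 5 genes called beside 18.3% of all genes, with 0 at an unadjusted p under 0.05 and 0 by DESeq2.

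TNFRSF11B in 22Rv1 stood at 2.87 and 2.33 CPM with RANKL against 0.728, 0.674 and 0.797 CPM without. The groups did not overlap, and the pooled ratio was 3.53 (exact 95% interval of counting error 2.40 to 5.17). The test without a minimum count gave 1.80 ± 0.66 (adjusted p = 0.102), and on the coding transcript the values were 0.865 and 1.44 CPM. These cultures held no MG63 cells, and their mesenchymal marker sum, 37.9 to 40.5 CPM, lay within the mono-culture range. In DU145 the gene stood at 0.636 and 0.0589 CPM with RANKL, which overlapped the range without it.

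The RANKL effect differed among the 4 lines for 1 of 5 genes, TNFRSF11A (adjusted p = 0.0333, edgeR), beside 32.6% of all genes. This call was not made without a minimum count (adjusted p = 0.0559) or on coding transcripts alone (adjusted p = 0.137). MG63 and RANKL were both set against the same 3 mono-cultures per line, so their values share that reference.

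RAW264.7 cells were compared with the RANKL mono-cultures, so that RANKL was present on both sides. Only TRAF2 and TRAF3 passed the minimum here, and edgeR called 0 of 8 tests, with 0 at an unadjusted p under 0.05 and 0 by DESeq2. Few genes of any kind were called: 0.00868% in C4-2, 0.139% in C4-2B, 0.0260% in DU145, 0.00868% in 22Rv1 and 0.0347% in the test of equal effects. TRAF3 in DU145 stood at 40.9 and 42.31 CPM with RAW264.7 cells and 36.2 and 41.7 CPM without, at 0.09 ± 0.09 on the log2 scale. TRAF2 was farthest from 0 in 22Rv1, at −0.28 ± 0.14 (adjusted p = 0.811). The receptor in DU145 stood at 6.20 and 6.61 CPM against 5.10 and 5.03 CPM, groups that did not overlap. With a minimum of 10 counts its log2 fold change was 0.33 (adjusted p = 0.964). In 22Rv1 the receptor stood at 0.293 and 1.14 CPM with RAW264.7 cells against 0.959 and 1.38 CPM without, groups that overlapped.

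The other genes of the pathway were followed as a list of 42 receptors, ligands, adaptors, kinases, NF-kB and AP-1 factors and inhibitors, of which 41 were in the table and 38 were tested. Between lines, 33 of 38 were called in DU145 against C4-2 (28 higher, 5 lower), 24 in 22Rv1 against C4-2 (14 higher, 10 lower) and 4 in C4-2B against C4-2, beside 78.3%, 72.0% and 13.6% of all genes. The median log2 fold change of the list in DU145 against C4-2 was 0.82, and that of all genes tested was −0.00. The minimum count can favor list genes that are high in DU145, as it did TNFRSF11A and TRAF1. No list gene was left out for this, so the directions and the median are descriptions. CSF1, the macrophage growth factor that OC precursors need beside RANKL, stood at 148.4 to 161.2 CPM in DU145 and 0.307 to 0.537 CPM in C4-2. CD40, another TRAF-binding receptor, had 1889 pooled counts in DU145 and 9 in C4-2B, and BIRC3, an inhibitor of apoptosis that binds TRAF2, stood 6.20 higher on the log2 scale in DU145 than in C4-2.

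With MG63 cells, 11 of 38 list genes were called in C4-2 (10 higher), 8 in C4-2B (7 higher), 16 in DU145 (10 higher) and 6 in 22Rv1 (3 higher), beside 10.1%, 7.41%, 30.5% and 20.4% of all genes, and the list's medians were 0.05, 0.02, 0.07 and −0.02 against −0.01, −0.00, −0.06 and 0.00 for all genes. The largest called changes by gene were TNFSF10, the death ligand TRAIL, at 9.87 and 10.8 CPM against 1.19 to 1.96 CPM in C4-2 (log2 fold change 2.77, adjusted p = 6.51e-06, edgeR), BIRC3 in C4-2 (2.44, adjusted p = 7.61e-06) and TNFAIP3, an inhibitor of NF-kB, in C4-2B (2.04, adjusted p = 0.00889). TNFSF10 was also called higher in C4-2B (1.56, adjusted p = 0.00224) but lower in DU145 (−1.98, adjusted p = 0.00928), and in 22Rv1 it was at −2.54 (adjusted p = 0.0625). NFKB1, the p50 subunit of NF-kB, was the gene of the list called in all 4 lines, higher each time. NFKB1 was singled out after the values were seen, and its log2 fold change was 0.66 in C4-2, 0.33 in C4-2B, 0.20 in DU145 and 0.27 in 22Rv1.

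With RANKL, 6 of 38 list genes were called in C4-2 (3 higher), 8 in C4-2B (3 higher), 17 in DU145 (6 higher) and 9 in 22Rv1 (4 higher), beside 18.3%, 14.4%, 32.5% and 17.7% of all genes. The list's medians were −0.08, −0.10, −0.20 and 0.03, and those of all genes −0.02, −0.02, −0.01 and −0.01. RELB, the partner of NFKB2 in the noncanonical pathway that TRAF3 restrains, had at most 0.449 counts in a 22Rv1 library with RANKL against 0.552 to 1.41 CPM without, at least 3.68-fold lower against a limit of 3 counts per library. TNFSF10 in C4-2 was 1.40 higher on the log2 scale (adjusted p = 0.00131, edgeR), and TNFAIP3 in DU145 was 1.39 higher (adjusted p = 0.000101). TRAF4, another adaptor, was called in all 4 lines and lower in each, by a log2 value of −0.27 in C4-2, −0.21 in C4-2B, −0.32 in DU145 and −0.36 in 22Rv1, and it too was singled out after the values were seen. With RAW264.7 cells, 1 of 34 list genes was called in C4-2B, FOS, at 6.45 and 8.57 CPM against 0.390 and 0.503 CPM (adjusted p = 0.00361), and 0 in the other lines.

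Genes whose 16 group means of log2(CPM + 1) were most like those of each tested gene were ranked by Pearson's r among 13454 genes. The 16 points share 4 lines, so r mainly describes the order of the lines. EHD4 was nearest to TNFRSF11A (0.969), PARD3 to TRAF1 (0.996), TMEM259 to TRAF2 (0.980), CBR1 to TRAF3 (0.990) and ZFP3 to TRAF6 (0.984).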

How the data were processed

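Poly-A RNA was sequenced in 36 strand-specific libraries. The authors quantified reads with kallisto and deposited estimated counts per transcript, without normalization across libraries, and per the labels hg19 is the genome named. A later scaling step in the study's methods is not part of the deposited values. Here counts were summed by the symbol in the table, rounded, and tested with edgeR 4.0.16 in R 4.3.3: TMM normalization, quasi-likelihood fits, a minimum of 100 counts in at least 1 fitted library, and Benjamini-Hochberg adjustment over all genes passing it. Fits held 20 libraries for lines and MG63 cells, 16 for RAW264.7 cells and 36 for RANKL. DESeq2 1.42.0 was an alternative. Coordinates and lengths came from GENCODE 29 on GRCh38 and promoters from RefSeq, where 6 of the 7 genes matched. The mouse cells' reads were not analysed here. Total counts ranged from 9593426 to 36719047.

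The 7 genes and the lists were chosen with earlier results of these data known. Other genes were named by the largest called change within the pathway list, at most 3 per comparison family, with exceptions stated. Fits were tested on simulated data. Scripts ran in Python 3.11.15.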

Additional observations from a re-analysis of the deposited data

Results flagged for a closer look

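The effect of RANKL on TNFRSF11A, the gene of RANK, differed among the 4 lines by a test of the difference itself (edgeR's quasi-likelihood test of equal effects, adjusted p = 0.0333). The log2 fold change was 1.01 ± 0.26 in DU145 and 1.24 ± 0.37 in 22Rv1, against −0.22 ± 0.31 in C4-2 and 0.18 ± 0.31 in C4-2B (SE). Both RANKL mono-cultures lay above all 3 mono-cultures without it in DU145 and in 22Rv1, though on coding transcripts alone the 22Rv1 groups overlapped. With RAW264.7 cells and the same RANKL, the gene stood at 6.20 and 6.61 CPM in DU145 and at 0.293 and 1.14 CPM in 22Rv1. The call of unequal effects was not made without a minimum count or on coding transcripts alone. With 1 library left out at a time the adjusted p ranged from 0.0170 to 0.0976, and the call was lost in 8 of 19 such fits, each without 1 of these libraries: the second mono-culture or either RANKL library of C4-2, the first RANKL library of C4-2B, the second mono-culture or either RANKL library of DU145, or the second RANKL library of 22Rv1. Without the first DU145 mono-culture the gene was under the minimum count.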

How the results depend on the processing

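Of 1623 recomputed values for single genes, 1543 kept their side of the threshold, 65 lost the call and 15 gained one. Of the 1289 with a sign, 37 changed it, none of them called in either fit. Of the 30 line tests, 24 were called, TNFRSF11A and TRAF1 in DU145 included. The count was 7 on scaled TPM counts, 8 with RANKL mono-cultures as the reference, in both of which fits only 2 of the 7 genes were tested, 10 under a rule of more than 2-fold and unadjusted p, and 19 to 24 with 1 library left out. The 3 calls with MG63 cells became 1, 1, 0 and 2 to 5 under these alternatives, and 5 was the count without either 1 of the DU145 MG63 libraries. Effects that differed between BPCa and LPCa lines with MG63 cells went from 0 called to as many as 3, without the first DU145 MG63 library. The test of equal MG63 effects went from 0 to 1 with DESeq2, with RANKL mono-cultures and by unadjusted p, and ranged from 0 to 3 with 1 library left out. The 4 calls with RANKL became 2 on coding transcripts, 2 under the fold rule and 2 to 4 with 1 library left out. The count of 2 was without the first DU145 mono-culture, where TNFRSF11A falls under the minimum. On scaled TPM counts 0 were called, and only 2 of the 7 genes were tested, without TNFRSF11A. The test of equal RANKL effects went from 1 to 0 without a minimum count and on coding transcripts, and ranged from 0 to 1 with 1 library left out. TNFRSF11A, the gene of that 1 call, was not tested on scaled TPM counts. The 0 calls with RAW264.7 cells stayed 0 in every fit. Minimums of 10 counts and coding transcripts were added after seeing the data.

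The replicate numbers did not pair the cultures (correlations of deviations −0.0747 to 0.0669, 0 of 8 above 0.1 in any family). With the replicate block, 24 line calls, 2 calls with MG63 cells (TRAF3 in C4-2 was lost at adjusted p = 0.0514), 4 with RANKL and 0 with RAW264.7 cells were made.

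Depth limits the ligand, osteoprotegerin and TRAF1 in BPCa cells, which rest on few or 0 counts. It also moved with culture. Groups held 2 or 3 libraries.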

Other observations

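Transcript makeup differed between lines for TRAF6. The longer coding transcript ENST00000526995 (4627 bases) held 64.0% of the pooled TRAF6 counts in C4-2 mono-cultures, 65.7% in C4-2B, 80.4% in DU145 and 91.3% in 22Rv1. The shorter ENST00000348124 (2558 bases) held 33.9%, 29.8% and 19.6% in C4-2, C4-2B and DU145. For TRAF3, the long coding transcript ENST00000560371 held 56.4% in DU145 mono-cultures, 50.5% with MG63 cells, 43.8% with RANKL and 46.6% with RAW264.7 cells, while ENST00000392745 held 27.5%, 26.3%, 43.2% and 43.3%. These are kallisto's estimates of shared reads, and the shares were not tested.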
